A study of Mus musculus with 16 samples.

Results

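The cells described here are the *Scx*+ cells found after 6 days of TGF-β2 treatment (T6), divided by whether *Sox9* was detected in the same cell. They come from *ScxGFP* iPSCs, mouse induced pluripotent stem cells that carry a GFP transgene under *Scx* control, which were first turned into mesodermal cells (T0). The cells then received TGF-β2 (recombinant human protein, at 10 ng/ml) and were taken on day 3 (T3), day 6 (T6) or day 9 (T9). Single live cells were sorted into plates of 384 wells, 3 plates at each time point, without selection on GFP. The mRNA was read by CEL-Seq2, which tags every captured molecule with a random barcode (UMI, unique molecular identifier) so that copies made by PCR count once. No group used here carries a gene deletion, and all T3, T6 and T9 cells received the same TGF-β2. A well was a member when it held at least 200 genes, 3000 UMIs and 1 *Scx* UMI. With at least 1 *Sox9* UMI it was *Scx*+/*Sox9*+, and with none it was *Scx*+/*Sox9*-. Of the 1152 wells of T6, 1081 passed both minimums and 869 were members, out of 4301 wells past the minimums and 4608 wells in the whole series. The *Scx*+/*Sox9*+ class had 391 wells (150, 95 and 146 in plates 1, 2 and 3) and the *Scx*+/*Sox9*- class had 478 (143, 192 and 143).

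*Scx* (chromosome 15, 76457452 to 76459458 on GRCm38) encodes scleraxis, a basic helix-loop-helix transcription factor of tendon and ligament progenitors. *Sox9* (chromosome 11, 112782224 to 112787760) encodes an HMG-box factor required for chondrocytes, and it acts with *Sox5* and *Sox6* on genes of the cartilage matrix such as *Col2a1* and *Acan*. Progenitors that express both factors are known from the embryo, where tendon meets cartilage, and descendants of such cells are found in tendon, ligament and the junction with bone. The comparison asks which other genes differ between *Scx*+ cells in which *Sox9* was or was not detected.

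Since the classes were defined by *Scx* and *Sox9* UMIs, the levels of both genes only describe them. For each class of a plate the UMIs of all wells were added up, and a level in CPM is a gene's part of 1000000 UMIs of that sum. *Sox9* was at 372, 365 and 334 CPM in the *Scx*+/*Sox9*+ wells of plates 1, 2 and 3. *Scx* was at 919, 880 and 493 CPM in the *Scx*+/*Sox9*+ wells and at 494, 672 and 659 CPM in the *Scx*+/*Sox9*- wells. It was thus higher beside *Sox9* in plates 1 and 2 and lower in plate 3. Of the 391 *Scx*+/*Sox9*+ wells, 151 (38.6%) held a single *Sox9* UMI, 70 held 2 and 170 held 3 or more, up to 45. A single *Scx* UMI was found in 44 of the *Scx*+/*Sox9*+ and 89 of the *Scx*+/*Sox9*- wells. Just outside the depth minimum, 23 *Scx*+ wells held at least 2000 but under 3000 UMIs, 7 of them with *Sox9*, and just inside it 16 held at least 3000 but under 4000, 2 of them with *Sox9*.

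Detection depends on depth, so a well without a *Sox9* UMI is not shown to lack *Sox9* mRNA. The median depth in *Scx*+/*Sox9*+ and *Scx*+/*Sox9*- wells was 10994 and 10288 UMIs in plate 1, 8313 and 7922.5 in plate 2, and 12047 and 10273 in plate 3. Wells with at least 10 UMIs of pluripotency genes, of which neither factor is a known marker, gave the background. Of these 113 wells over all time points, with a median of 18108 UMIs, 34.5% held *Sox9* and 13.3% held *Scx*, against 37.5% and 53% of the other 4188 wells at a median of 8211.5. After each well was thinned at random to 3000 UMIs, the background fell to 6.19% for *Sox9* and 3.54% for *Scx*, and the other wells were at 21.7% and 40.1%. The *Sox9* shares of both kinds of well were thus close before thinning, when their depths differed, and the background was the lower one at equal depth.

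The share of *Scx*+ wells that held *Sox9* was 51.2%, 33.1% and 50.5% in the 3 plates of T6 (mean 44.9% ± 10.3 SD, n = 3). Plate 2, the shallowest, was the lowest. The shares were 29.4% ± 7.28 at T3 and 28.4% ± 5.27 at T9 (SD, n = 3). After thinning they were 26.8% ± 4.59 at T6, 22.1% ± 3.28 at T3 and 18.7% ± 2.67 at T9, and the plates of T6 (22.6% to 31.7%) overlapped those of T3 (19.8% to 25.9%) and lay above those of T9 (15.7% to 20.9%). T0 had few *Scx*+ wells, 19, 19 and 18 in its plates, and its share had a higher mean, at 64% ± 14.5 (SD, n = 3), with plates that overlapped those of T6. After thinning, which left 7, 5 and 6 *Scx*+ wells, it was 41.7% ± 33.7. In *Scx*-negative wells of T6, 73 held *Sox9* and 139 did not.

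**Figure D1:**
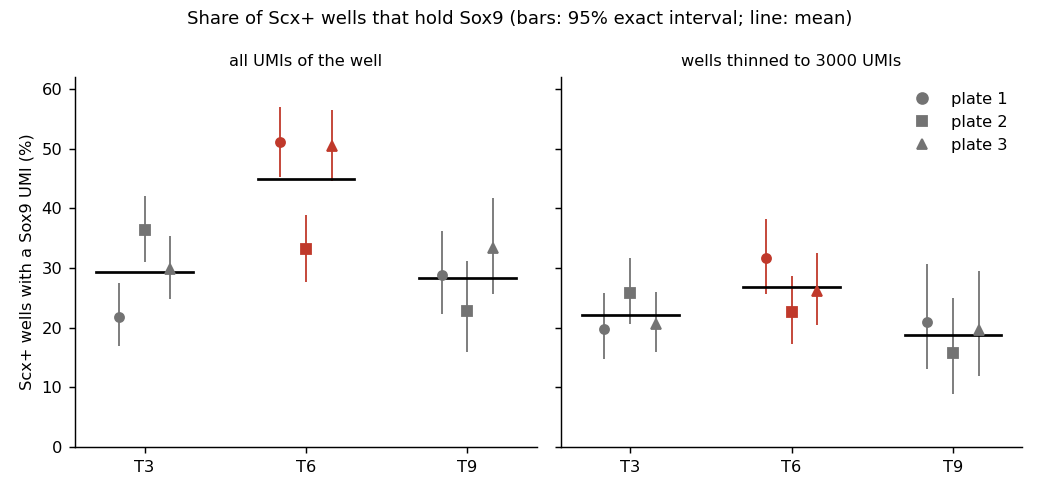
Percentage of *Scx*+ wells with a *Sox9* UMI in each plate of T3, T6 and T9, from all UMIs (left) and after thinning to 3000 UMIs (right), with 95% exact binomial intervals and the mean of the plates as a line. Plates 1 and 3 of T6 lie above every plate of T3 and T9 on the left, at 51.2% and 50.5%, and on the right the plates of T6 overlap those of T3 (22.6% to 31.7% against 19.8% to 25.9%) and lie above those of T9 (15.7% to 20.9%).

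Plate 2 of T6 stood apart from the other plates. Between plates 1 and 3 the chi-square per gene was 3 for the *Scx*+/*Sox9*+ sums and 3.22 for the *Scx*+/*Sox9*- sums, and with plate 2 it was 20.9 to 28.7. Mitochondrial genes took 248864 and 266674 CPM of the classes in plate 2, and between 107175 and 124670 CPM in the other plates. Both classes of a plate shared these features, and each comparison was therefore made within plates. The plates of T6 use the same 384 cell barcodes.

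Few genes were called between the classes. The UMIs of each class and plate were summed, and the sums were compared with the plate as a block by the quasi-likelihood test of edgeR, in which an adjusted p (Benjamini-Hochberg) below 0.05 was a call. Leaving out *Scx* and *Sox9*, 15 of 10315 genes were called (0.145%), 9 higher (0.0873%) and 6 lower (0.0582%) in *Scx*+/*Sox9*+ wells, and 345 (3.34%) had an unadjusted p below 0.05. The tendon proteoglycan gene *Fmod*, the retinoic acid-degrading enzyme gene *Cyp26a1* and *Cpm* were among those that were higher. *Sfrp1*, which encodes a secreted Wnt antagonist, the collagen VI genes *Col6a1* and *Col6a2*, and *Osr1* were among those that were lower. Of the 15 genes, 14 differed in the same direction in all 3 plates, against 28.1% of all genes tested, and in 9 the classes did not overlap at all, against 5.04%. The same sums gave the calls, so both counts only describe the chosen genes and are no further support. Most calls did not hold under other settings. None was made without the plate block or from wells with at least 6000 UMIs, 4 were made by DESeq2, and 5, 3 and 2 were made without plate 1, 2 and 3. The direction of the fold changes was the same in these fits wherever a value could be had.

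The called genes are first shown by sequences upstream of RefSeq start sites on GRCm38.p6. Windows were at hand for 11 of the 15 genes, 13 windows in all. The start used for *Fat1* lies inside the gene, which spans 44935447 to 45052257 on chromosome 8. Its stretch below is thus not upstream of the whole gene. The 250 bases before the start were searched on both strands for AACAAT and ACAAAG, which resemble the core bound by SOX factors, for CATCTG, an E-box as bound by basic helix-loop-helix factors, and for AGTTCA, a core bound by retinoic acid receptors. AACAAT was in the window of *Fat1* alone (9.42% of all 32851 windows hold it), ACAAAG in that of *Ptchd4* alone (16.5%), CATCTG in those of *Fmod* and *Ddah1* (14.4%), and AGTTCA in those of *Cyp26a1*, *Fmod*, *Ddah1* and *Col6a2* (11.8%). No motif overlapped another. A match describes these letters only. The 4 stretches of 60 bases below are those of genes that were higher in *Scx*+/*Sox9*+ wells, on the plus strand and 5′ to 3′, and the capitals mark the E-box in *Fmod* and *Ddah1*, the AACAAT of *Fat1* and both AGTTCA matches (read on the other strand as TGAACT) of *Cyp26a1*, which lie 5 bases apart within the last 32 bases before its start.
*Cyp26a1*, chr19:37697748-37697807: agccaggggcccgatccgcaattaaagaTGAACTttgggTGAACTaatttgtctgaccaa
*Fmod*, chr1:134037038-134037097: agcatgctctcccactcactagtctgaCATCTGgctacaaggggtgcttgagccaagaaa
*Ddah1*, chr3:145758586-145758645: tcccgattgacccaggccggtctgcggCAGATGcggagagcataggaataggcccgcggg
*Fat1*, chr8:44949979-44950038: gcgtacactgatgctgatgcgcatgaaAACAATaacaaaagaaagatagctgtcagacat

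*Fmod* (chromosome 1, 134037254 to 134048277 on GRCm38) encodes fibromodulin, a small leucine-rich proteoglycan that binds collagen fibrils in tendon. It was at 206, 128 and 128 CPM in the *Scx*+/*Sox9*+ wells of plates 1, 2 and 3 and at 84.6, 63 and 92 CPM in the *Scx*+/*Sox9*- wells. The classes did not overlap, and the log2 fold change was 0.91 (SE 0.17, adjusted p = 0.0343 by edgeR). A *Fmod* UMI was found in 58.3% of *Scx*+/*Sox9*+ and 32.8% of *Scx*+/*Sox9*- wells, and in 31.5% and 19.5% after thinning. The higher sum thus went with more wells that held the transcript.

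*Cpm* (chromosome 10, 117629500 to 117687352) encodes carboxypeptidase M, a membrane-bound enzyme that trims basic residues from the ends of peptides. It was at 169, 94.5 and 126 CPM in *Scx*+/*Sox9*+ wells and at 38.8, 66.7 and 57 CPM in *Scx*+/*Sox9*- wells. Every *Scx*+/*Sox9*+ sum lay above every *Scx*+/*Sox9*- sum, with a log2 fold change of 1.24 (SE 0.22, adjusted p = 0.0343 by edgeR). *Cpm* was found in 42.7% against 20.1% of the wells. Of the 9 genes that were higher, *Cpm* and *Fmod* passed the threshold under the most alternatives, 9 of 16 each.

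*Cyp26a1* (chromosome 19, 37697798 to 37701536) encodes a cytochrome P450 that breaks down retinoic acid and is itself a known target of retinoic acid receptors. It was at 66.5, 103 and 81.7 CPM against 38.2, 45.1 and 33.8 CPM, with no overlap of the classes (log2 fold change 1.06, SE 0.19, adjusted p = 0.0343 by edgeR). UMIs of *Cyp26a1* were found in 24.8% and 15.5% of the wells. The gene was thus detected in a minority of both classes.

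*Rgs2*, which encodes a protein that limits signalling through G proteins, was at 143, 175 and 108 CPM in *Scx*+/*Sox9*+ wells and at 74.4, 57.4 and 68.9 CPM in *Scx*+/*Sox9*- wells (log2 fold change 1.03, SE 0.21, adjusted p = 0.0396 by edgeR). *Ddah1*, which encodes an enzyme that removes an inhibitor of nitric oxide synthases, was at 510, 301 and 483 CPM against 281, 169 and 323 CPM (log2 fold change 0.73, SE 0.15). It was higher in each plate, although plate 2 of the higher class lay below plate 3 of the lower class. *Fat1*, which encodes a very large cadherin, was at 172, 130 and 125 CPM against 101, 61.1 and 88.9 CPM (log2 fold change 0.74, SE 0.15). *Rflnb*, which encodes a filamin-binding protein, was at 341, 204 and 209 CPM against 167, 106 and 131 CPM (log2 fold change 0.86, SE 0.17). Both lay higher in all *Scx*+/*Sox9*+ sums than in any *Scx*+/*Sox9*- sum.

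*Onecut2*, which encodes a homeobox transcription factor, and *Ptchd4*, which encodes a membrane protein with a patched domain, had the largest fold changes among the higher genes and the fewest UMIs. *Onecut2* was at 36.4, 54.8 and 72.6 CPM against 23.5, 7.41 and 14.4 CPM (log2 fold change 1.82, SE 0.36). *Ptchd4* was at 77.9, 32.7 and 39.2 CPM against 18.5, 8.65 and 15.7 CPM (log2 fold change 1.75, SE 0.36). The adjusted p of edgeR was 0.0396 for each of *Ddah1*, *Fat1*, *Rflnb*, *Onecut2* and *Ptchd4*. *Onecut2* was detected in 13.8% and 7.5% of the wells, and 35 of its 246 UMIs in *Scx*+/*Sox9*+ wells came from a single well. *Ptchd4* was detected in 16.9% and 8.4%, with 25 of 238 UMIs from a single well.

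The genes that were lower in *Scx*+/*Sox9*+ wells were, with *Osr1* and *Actc1* as exceptions, found in over 90% of both classes. *Sfrp1* (chromosome 8, 23411502 to 23449632) was at 881, 476 and 1201 CPM in *Scx*+/*Sox9*+ wells and at 1385, 777 and 1445 CPM in *Scx*+/*Sox9*- wells. It was lower in each plate (log2 fold change -0.56, SE 0.10, adjusted p = 0.0343 by edgeR) and passed the threshold under 11 of 16 alternatives, more than any other gene. *Col6a1* and *Col6a2* encode chains of collagen VI, which forms microfibrils around cells, and they lie 85161 bases apart on chromosome 10. *Col6a1* was at 915, 411 and 973 CPM against 1267, 652 and 1262 CPM, and *Col6a2* at 736, 316 and 751 CPM against 1027, 537 and 934 CPM. Their log2 fold changes were -0.52 (SE 0.11) and -0.53 (SE 0.11), with an adjusted p of 0.0396 each by edgeR. The third chain measured, *Col6a3*, was at 451, 279 and 456 CPM against 389, 190 and 403 CPM and was not called (log2 fold change 0.28, SE 0.14, adjusted p = 1).

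*Osr1* (chromosome 12, 9570116 to 9581500) encodes a zinc-finger factor of embryonic connective tissue. It was at 25, 12.8 and 31.2 CPM against 57.3, 42.6 and 62 CPM, with no overlap (log2 fold change -1.24, SE 0.24, adjusted p = 0.0396 by edgeR). *Osr1* UMIs were found in 18.7% of *Scx*+/*Sox9*+ and 25.3% of *Scx*+/*Sox9*- wells. The log2 fold change of *Osr1* was -0.69 when the wells were thinned before summing and -0.052 when the classes were called from thinned UMIs, and neither value passed the test. *Actc1*, which encodes the actin of heart and developing skeletal muscle, was also called, with a log2 fold change of -3.92 (SE 0.71, adjusted p = 0.0396 by edgeR). It had UMIs in plate 3 alone, 20 in 19 *Scx*+/*Sox9*+ wells and 270 in 10 *Scx*+/*Sox9*- wells, 260 of them in a single well. Without wells of 100 or more *Actc1* UMIs, a step added after the data were seen, its log2 fold change was 0.71 (adjusted p = 0.999), and the 14 other genes were still called.

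**Figure D2:**
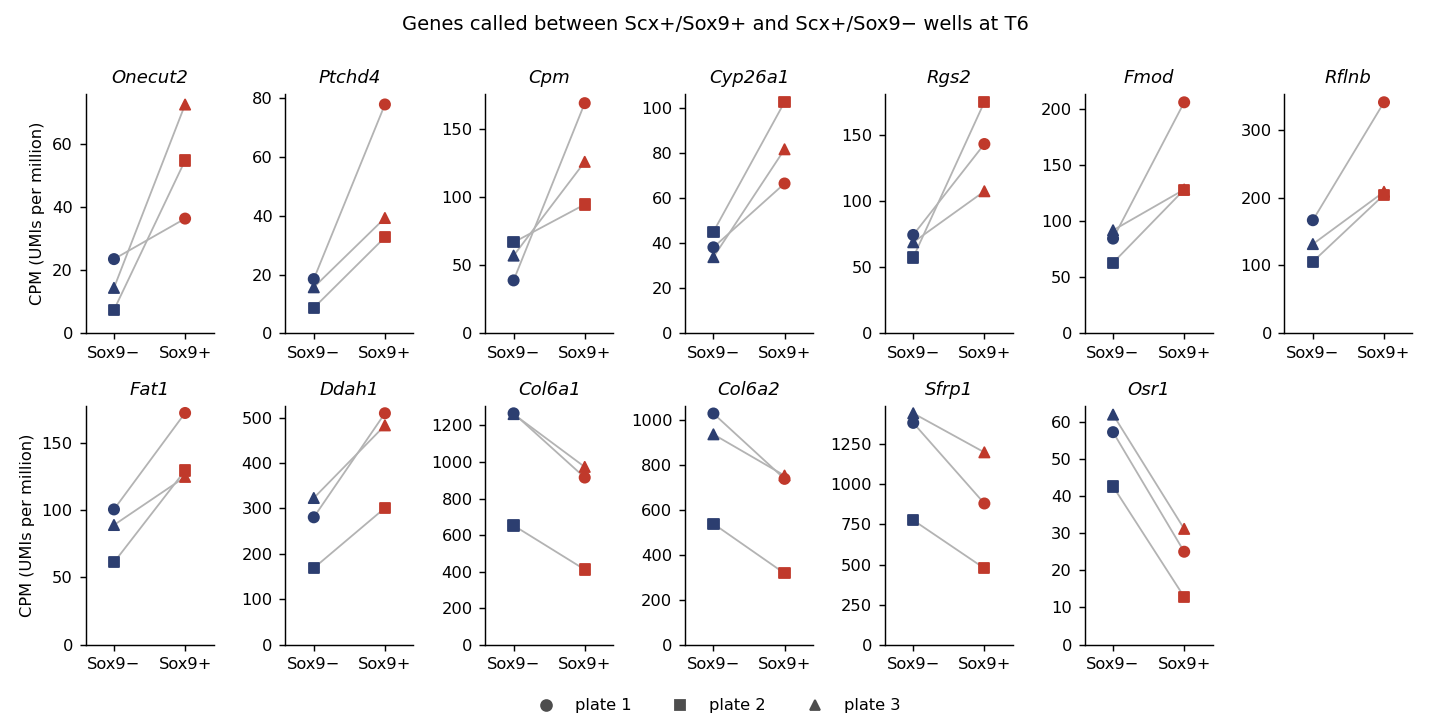
Levels in CPM of 13 of the 15 called genes in the *Scx*+/*Sox9*- (blue) and *Scx*+/*Sox9*+ (red) wells of each T6 plate, with lines joining the classes of a plate; *Actc1* is left out because 1 well held most of its UMIs. All lines slope the same way within a gene, upward in 9 genes and downward in 4, and plate 2 lies lowest for *Sfrp1*, *Col6a1* and *Col6a2* in both classes.

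For most of the 15 genes, wells with at least 3 *Sox9* UMIs lay further from the *Scx*+/*Sox9*- wells than wells with 1. The 869 wells were divided into 478 with no *Sox9* UMI, 151 with 1, 70 with 2 and 170 with 3 or more, with median depths of 8923, 10159, 9741.5 and 10907.5 UMIs. These values are descriptive, since the same wells gave the calls. *Fmod* was at 79.9 ± 15.1, 109 ± 39, 159 ± 39.4 and 197 ± 57.2 CPM over these groups (SD over 3 plates). *Cpm* was at 54.2 ± 14.2, 98.7 ± 31.6, 83.5 ± 50.9 and 177 ± 45.5 CPM. *Col6a1* was at 1060 ± 354, 944 ± 444, 794 ± 183 and 598 ± 292 CPM, and *Osr1* at 54 ± 10.1, 25.8 ± 9.53, 29.4 ± 1.44 and 17 ± 15 CPM. For all 9 genes that were higher, the mean was above that of the *Sox9*-free wells already at 1 UMI and higher again at 3 or more. The step from 1 UMI to 3 or more was upward in each plate for 8 of them. From 0 to 1 UMI some plates fell, such as *Fat1* in plate 3 (88.9 to 79.2 CPM) and *Onecut2* in plate 1 (23.5 to 6.38 CPM). The wells of 2 UMIs did not always lie between, with mean *Cyp26a1* at 72.9, 41.1 and 110 CPM for 1, 2 and 3 or more UMIs. For 5 of the 6 lower genes the mean fell further from 1 UMI to 3 or more, *Actc1* being the exception. *Scx*, which chose the members, had no common order: it was at 494, 724, 852 and 1077 CPM in plate 1, at 672, 796, 702 and 1087 CPM in plate 2, and at 659, 435, 476 and 551 CPM in plate 3. *Col1a1* was at 9136 ± 4108, 9546 ± 5308, 10552 ± 4392 and 9744 ± 3671 CPM, with no order of the groups common to the plates. With wells of at least 2 *Sox9* UMIs as the *Sox9*+ class and the wells of 1 UMI left out, 44 genes were called, 14 of the 15 among them.

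**Figure D3:**
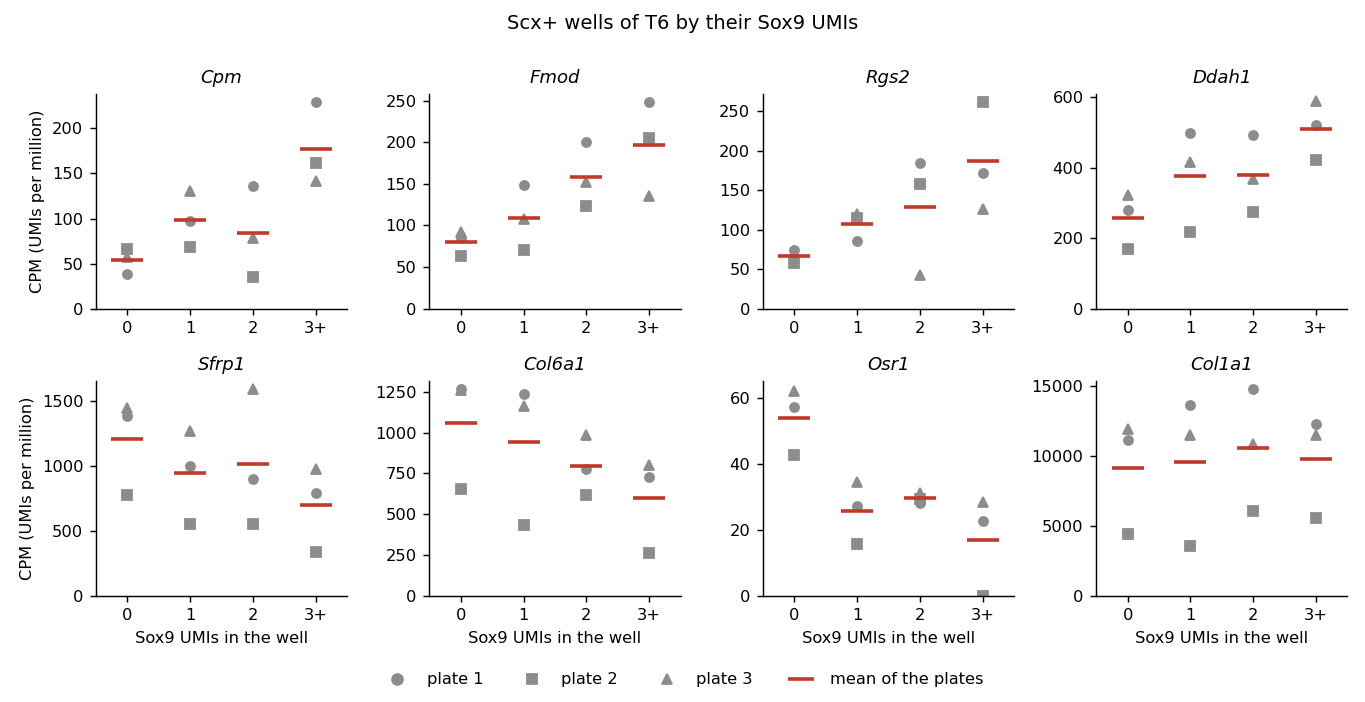
Levels in CPM of 8 genes in *Scx*+ wells of T6 with 0, 1, 2 or at least 3 *Sox9* UMIs, per plate (grey) and as the mean of the plates (red). *Fmod* runs from 79.9 to 197 CPM and *Col6a1* from 1060 to 598 CPM, while *Col1a1* stays between 9136 and 10552 CPM.

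Most tendon genes did not pass the test. Of 28 genes on a tendon list, which had been chosen with earlier results of these data known, 27 were tested, 1 was higher (*Fmod*) and 2 were lower (*Col6a1*, *Col6a2*), with a median log2 fold change of 0.03 against -0.0045 over all genes tested. An unadjusted p below 0.05 by edgeR was found for 11 of the 27, against 3.34% of all genes tested. *Col1a1* and *Col1a2*, which encode the chains of type I collagen, were at 13096, 4738 and 11348 CPM and at 11639, 4229 and 10959 CPM in *Scx*+/*Sox9*+ wells. In *Scx*+/*Sox9*- wells they were at 11101, 4415 and 11893 CPM and at 10072, 4449 and 11040 CPM. The log2 fold changes were 0.07 (SE 0.06) and 0.02 (SE 0.06), and neither gene was called. Within plates, *Col1a1* was higher in plates 1 and 2 and lower in plate 3. *Col1a2* was higher in plate 1 and lower in plates 2 and 3. *Tnmd*, which encodes tenomodulin, a late tendon marker, was at 167, 114 and 33.3 CPM against 43.9, 87.1 and 51.3 CPM (log2 fold change 0.63, SE 0.32, adjusted p = 1 by edgeR). It was higher in plates 1 and 2 and lower in plate 3, and without plate 1 its log2 fold change was -0.11.

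*Mkx*, which encodes a homeobox factor of tendon, was at 20.5, 40.8 and 13.4 CPM against 14.6, 17.9 and 14.4 CPM (log2 fold change 0.53, SE 0.36). *Thbs4*, which encodes a thrombospondin of tendon matrix, was at 168, 73.5 and 76.3 CPM against 73.8, 62.4 and 28.8 CPM (log2 fold change 0.94, SE 0.29, adjusted p = 0.434 by edgeR). *Thbs4* was higher in each plate, and it was found in 28.4% of *Scx*+/*Sox9*+ and 14.9% of *Scx*+/*Sox9*- wells. *Dcn*, which encodes decorin, was lower in each plate, at 1084, 696 and 863 CPM against 1144, 880 and 1374 CPM (log2 fold change -0.39, SE 0.12, adjusted p = 0.421). *Tnc* had a log2 fold change of 0.31 (SE 0.13), *Egr1* of -0.11 (SE 0.09) and *Lum* of -0.14 (SE 0.13), each with an adjusted p of 1. *Kera*, which encodes the proteoglycan keratocan, was at 91, 81 and 39 CPM against 33, 36 and 17 CPM and did not pass (log2 fold change 1.26, SE 0.29, adjusted p = 0.118). *Kera* was chosen for mention after its values were seen, as were the other uncalled genes below that lead their lists.

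Most cartilage genes were scarce in both classes. Their list summed to 259 to 678 CPM in *Scx*+/*Sox9*+ wells and to 206 to 496 CPM in *Scx*+/*Sox9*- wells. Of 25 cartilage genes, 22 had a row, 9 had enough UMIs to be tested and none was called. A log2 fold change above 0 was found for 8 of the 9 (median 0.27), against 49.2% of all genes tested. Over all *Scx*+/*Sox9*+ wells *Col2a1*, which encodes the collagen of cartilage, had 14 UMIs, and over all *Scx*+/*Sox9*- wells it had 8. *Acan* had 1 and 0, *Hapln1* 3 and 5, *Cnmd* 1 and 1, *Matn3* 5 and 5, and *Col9a1*, *Col11a2* and *Matn1* had none in either class. *Sox5* was at 11.4, 1.17 and 11.3 CPM against 8.91, 4.94 and 7.51 CPM (log2 fold change 0.12, SE 0.52), and *Sox6* at 16.5, 9.34 and 27.4 CPM against 22.9, 4.32 and 18.8 CPM (0.22, SE 0.39). Neither kept its direction in all plates, *Sox5* being lower in plate 2 and *Sox6* in plate 1. *Col11a1*, which encodes a fibrillar collagen shared by cartilage and young tendon, was at 338, 149 and 331 CPM against 277, 133 and 266 CPM, higher in each plate and not called (log2 fold change 0.25, SE 0.14). *Prg4*, which encodes lubricin, had the largest difference on the list, at 212, 32 and 116 CPM against 104, 21 and 31 CPM (log2 fold change 1.22, SE 0.29, adjusted p = 0.121 by edgeR). It was found in 16.6% and 12.3% of the wells, and a single well held 103 of its 615 UMIs in the *Scx*+/*Sox9*+ class and 64 of 248 in the other. Of 10 osteoblast genes 2 were tested and neither was called, *Runx2* at 38, 40 and 39 CPM against 18, 23 and 25 CPM (adjusted p = 0.454) and *Spp1* at 35, 55 and 27 CPM against 24, 17 and 6 CPM (adjusted p = 0.255).

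Signalling lists gave 1 call each for retinoic acid (*Cyp26a1*, higher) and Wnt (*Sfrp1*, lower) and none for TGF-β, BMP, FGF, hedgehog or Notch genes. In the retinoic acid list 16 of 18 genes were tested, 8 of them above 0, against 49.2% of all genes tested. *Aldh1a2*, which encodes an enzyme that makes retinoic acid, was at 48, 39 and 65 CPM against 84, 65 and 90 CPM, with no overlap and no call (log2 fold change -0.68, SE 0.19, adjusted p = 0.315 by edgeR). *Cyp26b1*, the related degrading enzyme, was at 22, 7 and 12 CPM against 7, 5 and 16 CPM. Of the receptors, *Rarb* was at 27, 14 and 24 CPM against 32, 32 and 38 CPM (adjusted p = 1), and *Rara* and *Rarg* had log2 fold changes of -0.12 (SE 0.14) and 0.18 (SE 0.24).

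Of 21 TGF-β genes, 20 were tested with a median log2 fold change of 0.10. *Tgfb2*, which encodes the ligand that was also added to the culture, was at 183, 90 and 202 CPM against 107, 43 and 130 CPM (log2 fold change 0.77, SE 0.18, adjusted p = 0.101 by edgeR). *Tgfb2* was higher in each plate, and 61.6% against 42.7% of the wells held it. *Ccn2*, a response gene of TGF-β, was at 134, 84 and 104 CPM against 218, 120 and 173 CPM (log2 fold change -0.68, SE 0.16, adjusted p = 0.101). The receptors *Tgfbr1* and *Tgfbr2* and the inhibitor *Smad7* had log2 fold changes between -0.05 and 0.13. The BMP list had 20 genes tested and a median of 0.01, with *Id1*, a BMP response gene, at 313, 235 and 288 CPM against 368, 306 and 389 CPM (log2 fold change -0.37, SE 0.11, adjusted p = 0.333). In the FGF list (12 tested, median -0.02), *Dusp6*, a phosphatase gene induced by FGF, was at 74, 46 and 64 CPM against 27, 33 and 28 CPM (adjusted p = 0.312), and *Fgf9* at 34, 34 and 32 CPM against 22, 13 and 14 CPM (adjusted p = 0.434). The Wnt list had 18 tested genes with a median of -0.09, the hedgehog list 8 with a median of -0.03, and the Notch list 6 with a median of -0.07.

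Of 35 limb and somite transcription factors 20 were tested, 14 with a log2 fold change above 0 (median 0.17), against 49.2% of all genes tested. Only *Osr1* was called, as lower. *Osr2*, its paralog, was at 10, 9 and 17 CPM against 24, 18 and 18 CPM (adjusted p = 1 by edgeR). *Six2* was at 30, 22 and 32 CPM against 9, 17 and 8 CPM (log2 fold change 1.33, SE 0.34, adjusted p = 0.201), *Prrx2* at 86, 109 and 85 CPM against 60, 57 and 77 CPM, and *Meox1* at 67, 74 and 63 CPM against 43, 51 and 51 CPM. In all 3 the classes did not overlap and the test was not passed. The limb genes *Tbx4* and *Tbx5* had too few UMIs to be tested, 18 UMIs in 13 *Scx*+/*Sox9*+ wells against 3 in 3 *Scx*+/*Sox9*- wells for *Tbx4*, and 16 in 13 wells against 3 in 3 wells for *Tbx5*.

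Markers of other cell types were compared as summed levels. The 10 smooth muscle genes tested all had a log2 fold change below 0 (median -0.26, none called), while 49.2% of all genes tested lay above 0. The list of 11 smooth muscle genes summed to 1833 to 3561 CPM in *Scx*+/*Sox9*+ wells and to 2525 to 3429 CPM in *Scx*+/*Sox9*- wells. The 10 endothelial genes summed to 35 to 87.1 CPM against 74.1 to 125 CPM, with 4 of them at 0 in the *Scx*+/*Sox9*+ wells. The neural list summed to 253 to 391 CPM against 400 to 531 CPM, mostly *Stmn2*, a gene of growing neurites, at 275, 243 and 346 CPM against 495, 381 and 433 CPM (log2 fold change -0.62, SE 0.14, adjusted p = 0.0733 by edgeR). The pluripotency list summed to 5.91 to 105 CPM against 3.09 to 141 CPM, with *Pou5f1* at 0 in both classes, and 4 members held at least 10 such UMIs. The 14 striated muscle genes summed to 30.3 to 71.5 CPM against 39.5 to 374 CPM, the highest value being that of the plate with the *Actc1* well. Without wells of at least 10 pluripotency UMIs, a step added after the data were seen, all 15 genes were still called. The part of the smooth muscle, endothelial and neural genes in the differences of other genes was not tested.

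Genes of G2/M phase lay slightly higher in *Scx*+/*Sox9*+ wells. Of 24 genes, 23 had a log2 fold change above 0 (median 0.27), against 49.2% of all genes tested. None of the 24 was called or had an unadjusted p below 0.05. The list summed to 2063, 938 and 2714 CPM against 2064, 1165 and 1360 CPM, so that the difference lay in plate 3. Wells with at least 2 such UMIs after thinning made up 42.7%, 23.2% and 42.5% of *Scx*+/*Sox9*+ and 43.4%, 27.6% and 40.6% of *Scx*+/*Sox9*- wells. Without these wells 4 genes were called, 3 of them among the 15. Of 15 genes of the dissociation response that were tested, 12 lay above 0 (median 0.11), against 49.2% of all genes tested, and none was called.

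**Figure D4:**
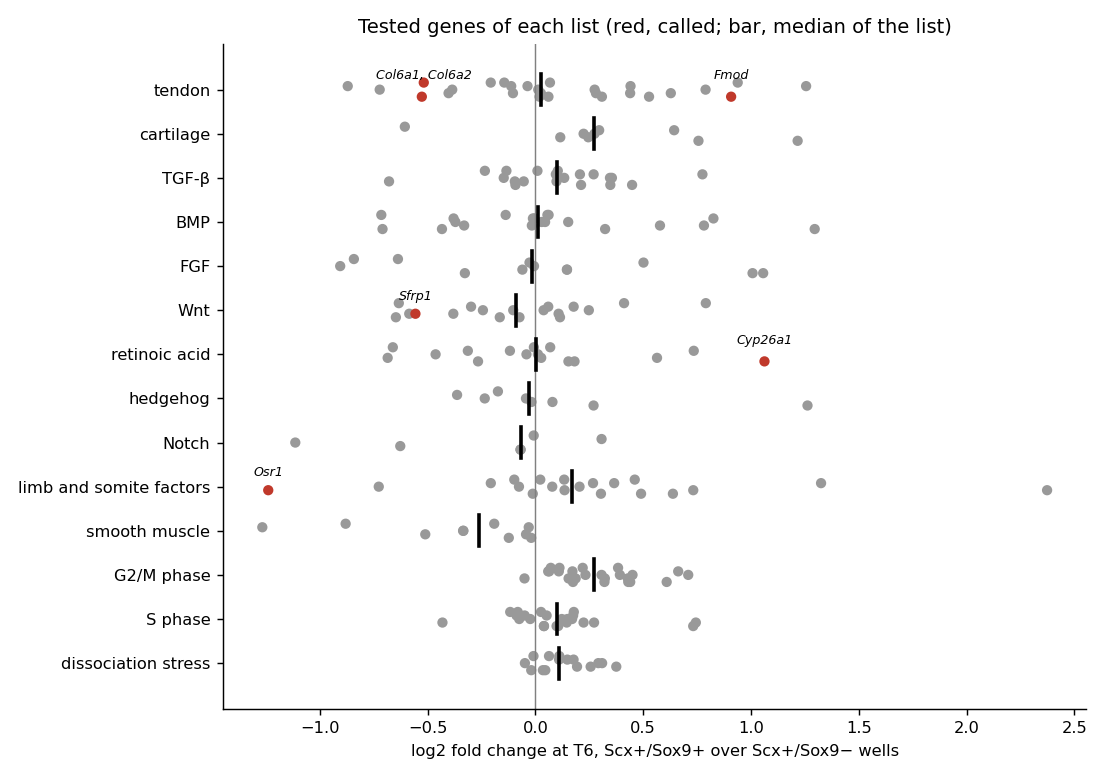
Log2 fold change at T6 of each tested gene of 14 lists, with called genes in red and the median of each list as a bar. The medians lie between -0.26 (smooth muscle) and 0.27 (cartilage, G2/M phase), and called genes are found in the tendon, Wnt, retinoic acid and limb and somite lists.

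The same comparison was made at T3 and T9, where 12 (0.116%) and 39 (0.378%) of the 10315 genes were called. At T3, 9 were higher and 3 lower (0.0291%), and at T9, 28 were higher (0.271%) and 11 lower (0.107%). T3 had 259 *Scx*+/*Sox9*+ and 609 *Scx*+/*Sox9*- wells, and T9 had 126 and 315. These plates and wells did not give the T6 fold changes. They did enter the filter on low counts and the estimate of spread behind the T6 calls, so they are not independent of the choice of genes. Leaving out *Actc1*, 13 of the 14 T6 genes had the same direction at T3 and 13 at T9, the exceptions being *Osr1* at T3 (log2 fold change 0.02, SE 0.27) and *Ptchd4* at T9 (-0.55, SE 0.72). The share of all genes tested that kept their direction is not given beside these counts, so their excess over it is not known. At T3 *Ddah1* was also called (log2 fold change 0.93, SE 0.18, adjusted p = 0.0442 by edgeR). At T9 *Sfrp1* (-0.62, SE 0.11, adjusted p = 0.00715), *Col6a2* (-0.64, SE 0.11, adjusted p = 0.00888), *Col6a1* (-0.58, SE 0.11, adjusted p = 0.0192) and *Osr1* (-1.74, SE 0.33, adjusted p = 0.0189) were among the 5 genes called again, all as lower.

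*Fmod* had a log2 fold change of 1.07 (SE 0.23, adjusted p = 0.0613 by edgeR) at T3 and of 0.72 (SE 0.18, adjusted p = 0.0881) at T9, and *Cpm* of 1.17 (SE 0.27, adjusted p = 0.0856) and 1.05 (SE 0.27, adjusted p = 0.107). Neither passed the threshold there. For none of the 15 genes was the difference between time points itself called, with a smallest adjusted p of 0.999 for T6 against T3 and 0.994 for T6 against T9. Over all genes 1 difference was called for T6 against T3 (*Tdgf1*, higher, 0.00969%, with 428 at an unadjusted p below 0.05) and none by edgeR or DESeq2 for T6 against T9 (467 at an unadjusted p below 0.05). *Tnmd* was called at T9 (log2 fold change 1.49, SE 0.30, adjusted p = 0.0212) and not at T6, and its difference between T6 and T9 was not called. Cartilage genes called at T3 were *Prg4* (log2 fold change 1.77, SE 0.33, adjusted p = 0.036) and *Col11a1* (0.75, SE 0.15, adjusted p = 0.0442). At T9 their values were -0.20 (SE 0.40) and 0.44 (SE 0.15), and neither was called. Of 24 G2/M genes, 8 were called as higher at T9 (median log2 fold change 1.49), against none at T6.

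**Figure D5:**
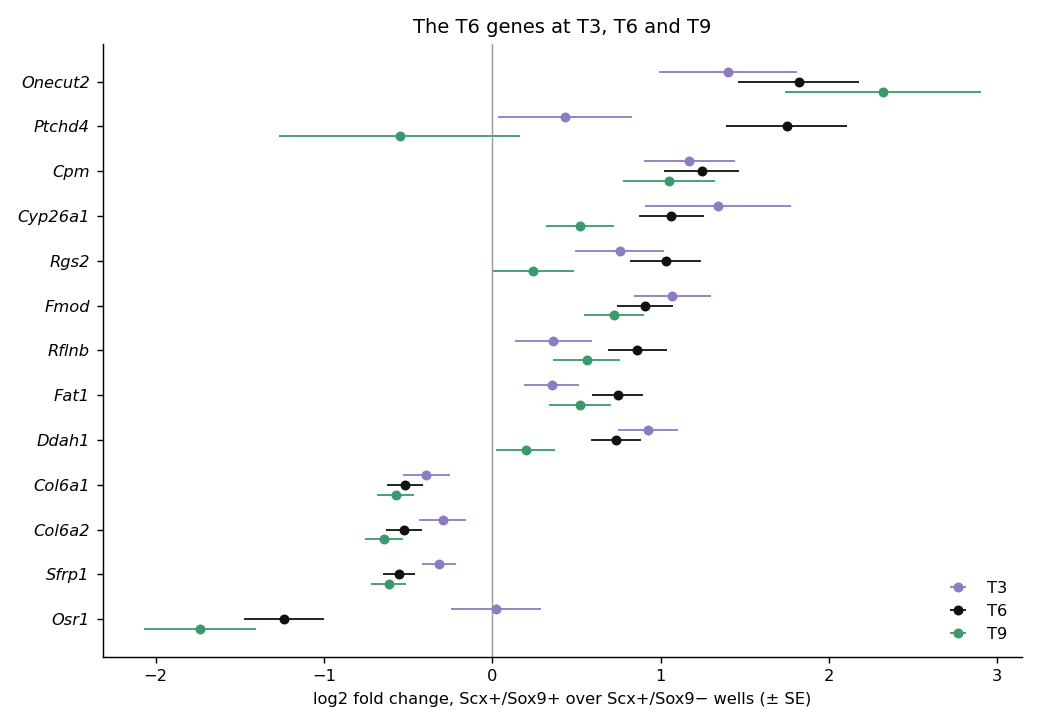
Log2 fold change (± SE) between *Scx*+/*Sox9*+ and *Scx*+/*Sox9*- wells at T3, T6 and T9 for 13 genes called at T6. Points of a gene lie on the same side of 0 for all but *Ptchd4* (T9, -0.55) and *Osr1* (T3, 0.02).

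In wells of T6 without *Scx*, 73 with *Sox9* were compared with 139 without it, in the same 3 plates. Here 24 of 8975 genes were called (0.267%), 7 higher (0.078%) and 17 lower (0.189%). Of the 15 genes called in *Scx*+ wells 14 were tested and all 14 had the same direction, without a share over all genes to set beside it. Of the 14, 1, *Cyp26a1*, was called (log2 fold change 4.17, SE 0.51, adjusted p = 0.000281 by edgeR). *Cyp26a1* had 188 UMIs in 16 of the 73 wells with *Sox9*, 45 of them in 1 well, and 12 UMIs in 9 of the 139 wells without it. The *Sox9*+ wells also held 36 UMIs of the pluripotency gene *Tdgf1* in 2 wells, against 2 UMIs in 2 wells, and *Dnmt3l* (log2 fold change 9.05), *Mt2* (6.11) and *Mt1* (3.63) were called beside *Cyp26a1*. Without wells of at least 10 pluripotency UMIs the calls fell from 24 to 11, while all 14 genes kept their direction and *Cyp26a1* was still called (4.03, adjusted p = 6.3e-06). Its value was 0.84 (adjusted p = 0.881) with classes matched on depth, 1.18 (adjusted p = 0.56) with classes called from thinned UMIs and 4.19 (adjusted p = 0.0714) without plate 1, and none of these passed the test. *Fmod*, *Onecut2* and *Rflnb* had values near 0 in these wells (0.01, SE 0.42; 0.04, SE 0.91; 0.03, SE 0.33), and those of *Col6a1*, *Col6a2* and *Sfrp1* were -0.41 (SE 0.12), -0.57 (SE 0.17) and -0.53 (SE 0.14). The difference between *Scx*+ and *Scx*-negative wells was called for none of the 14, with a smallest adjusted p of 0.132. Over all genes it was called for *Mt2* alone (0.0111% of 8975 genes).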

How the data were processed

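Single-cell libraries of T0, T3, T6 and T9 (3 plates each) were used. Before deposit the authors used Trim Galore for trimming and HISAT2 2.2.1 for alignment to GRCm38, and they counted genes with featureCounts and UMI-tools 1.0.1, and the deposited values are raw UMI counts per gene and well. The annotation release is not given in the sources used here. Symbols and positions came from GENCODE M21 (29528 of 29629 genes matched), and 3 other rows with 0.0642% of the UMIs were left out. *Scx* lies within the span of *Bop1*, and overlapping genes cannot be told apart by these counts. The deposited raw read counts of bulk tendon were not used. Doublets were gated out at the sort, per the study's methods, and no caller was run.

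Members, gene lists and tests were chosen with earlier results of these data known. UMIs were summed per plate and class, and the 18 sums of T3, T6 and T9 were fitted in edgeR 4.0.16 (R 4.3.3) with filterByExpr, TMM, the plate as a block and the class within each time point. The standard error is the log2 fold change divided by the square root of the F statistic. A second fit on 12 sums of T6 gave the *Scx*-negative wells and the interaction. DESeq2 1.42.0 was an alternative. The block pairs the classes of 1 plate, and their deviations from the class means correlated at 0.393, 0.681 and 0.533. The block takes out the level of each plate, so p-values measure how far the class difference varied between plates. In the fit of 18 sums this variation was pooled over T3, T6 and T9. Nothing states that plates were separate cultures, so it may be technical. Intervals cover counting error only. Python 3.11.15, numpy 2.4.6, scipy 1.17.1, pandas 2.3.3 and matplotlib 3.10.9 were used.

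Named genes were the called genes with at least 20 CPM in the higher class and the same direction in all plates (12 at most in each direction), the leading genes of the tendon and cartilage lists, and every called list gene. A called gene is counted but not reported here. On simulated data with 200 changed genes, the test at T6 recovered 26.5% at 1.5-fold, 71% at 2-fold and 96% at 3-fold, with 14, 4 and 11 false calls. At 1.5-fold, and slightly at 3-fold, the false calls were a larger part of all calls than the threshold of 0.05. Each fold was simulated once, and the shares may not hold for another number of changed genes. Class sums at T6 held between 856901 and 1860308 UMIs.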

Additional observations from a re-analysis of the deposited data

Results flagged for a closer look

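The difference between *Scx*+/*Sox9*+ and *Scx*+/*Sox9*- wells was itself different between T6 and T3 for *Tdgf1*, a pluripotency gene. The log2 fold change was higher at T6 by 5.57 (adjusted p = 0.00918 by edgeR), with 2.23 at T6 and -3.34 at T3. At T6 the *Scx*+/*Sox9*+ wells held 56 *Tdgf1* UMIs in 5 of 391 wells, 49 of them in 1 well, and at T3 the *Scx*+/*Sox9*- wells held 145 in 11 of 609 wells, 52 of them in 1 well. When wells with at least 10 UMIs of pluripotency genes were left out, *Tdgf1* had too few UMIs to be tested.

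For *Mt2*, which encodes a metallothionein, the *Sox9* difference in *Scx*+ wells of T6 differed from that in *Scx*-negative wells by -6.51 on the log2 scale (adjusted p = 0.00871 by edgeR). The *Scx*-negative wells with *Sox9* held 245 *Mt2* UMIs in 10 of 73 wells, 106 of them in 1 well, and those without *Sox9* held 4 UMIs in 139 wells. Without the wells with pluripotency genes the value was -3.40 and was not called (adjusted p = 0.72).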

How the results depend on the processing

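At T6, 15 genes were called in *Scx*+ wells. With DESeq2 the counts were 4 at T6, 2 for T6 against T3, 38 in *Scx*-negative wells and 0 for the *Scx* difference. Without a filter on low counts they were 51 at T6, 52 at T3, 142 at T9, 9 for T6 against T3, 24 for T6 against T9, 209 in *Scx*-negative wells and 53 for the *Scx* difference. With only the 6 sums of T6, 39 were called. With 2 *Sox9* UMIs required, the counts were 44, 47 and 66 at T6, T3 and T9, 0 and 9 for T6 against T3 and T9, and 8 in *Scx*-negative wells. With 6000 UMIs they were 0, 3 and 23 at T6, T3 and T9. With wells thinned before summing they were 23 at T3, 2 for T6 against T9, 8 in *Scx*-negative wells and 2 for the *Scx* difference. With classes called from thinned UMIs they were 6, 25 and 11 at T6, T3 and T9, 0 and 1 for T6 against T3 and T9, 8 in *Scx*-negative wells and 0 for the *Scx* difference. With classes matched on depth they were 4, 6 and 7, 0 for T6 against T3, 1 in *Scx*-negative wells and 0 for the *Scx* difference. Without dividing wells they were 4, 7 and 14, 0 and 1 for T6 against T3 and T9, and 0 for the *Scx* difference. Without wells with pluripotency genes, a step added after the data were seen, they were 18 at T6, 0 for T6 against T3, 11 in *Scx*-negative wells and 2 for the *Scx* difference. The cause of these changes was not tested. DESeq2 size factors, and leaving out wells with many *Actc1* UMIs, kept every count within 1.5 times.

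Without the replicate block on the plate, the counts were 0 at T6, T3 and T9, 0 for T6 against T3 and T9, 1 in *Scx*-negative wells and 0 for the *Scx* difference. Leaving out each plate of T6 gave 2 to 5 calls at T6, 6 to 14 at T3, 42 to 48 at T9, 0 to 1 for T6 against T3 and against T9, 0 to 104 in *Scx*-negative wells and 0 to 15 for the *Scx* difference.

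The share of *Scx*+ wells with *Sox9* was 26.8% after thinning, 24.9% with only *Sox9* thinned, 27.6% with 2 *Sox9* UMIs and 41.8% to 50.9% without each plate. Of the 15 genes, 14 kept their direction in all fits, and *Actc1* turned to 0.71 without its well. Uncalled genes turned as follows. Without each plate of T6 in turn, *Tnmd* lay between -0.11 and 1.14, *Col1a1* between -0.024 and 0.15, *Col1a2* between -0.082 and 0.096 (below 0 without plate 1 in these 3), and *Sox5* between -0.23 and 0.46 (below 0 without plate 1 or 3). With classes from thinned UMIs *Tnc* was at -0.0044, *Egr1* at 0.054, *Col1a1* at -0.035, *Lum* at 0.16 and *Col1a2* at -0.090, and without dividing wells *Col1a2* was at -0.033.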
